A study of Mus musculus with 18 samples.

Results

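Expression of 9 neural genes was followed in female mouse embryonic stem (ES) cells with and without the histone demethylase KDM6A: *Pax6*, *Sox1*, *Sox3*, *Nes*, *Neurog2*, *Tubb3*, *Map2*, *Dcx* and *Nrsn1*. These 9 genes were taken by symbol from the 24346 gene symbols in the processed RNA-seq values of 18 libraries, and all 9 were present in each library. When an early embryo cell turns neural, the transcription factors SOX1, SOX3 and PAX6 mark neural plate and progenitors, the intermediate filament nestin (*Nes*) fills the progenitors, proneural factors such as NEUROG2 commit cells to the neuronal fate, and young neurons build a microtubule skeleton with βIII-tubulin (*Tubb3*), MAP2 and doublecortin (*Dcx*). Neurensin-1 (*Nrsn1*) is a membrane protein of neuronal vesicles. KDM6A removes methyl groups from lysine 27 of histone H3, a repressive mark that is known to gather at CpG-rich promoters of developmental genes in ES cells.

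Libraries came from a pair of hybrid lines with a *Mus castaneus* (*cast*) genome on one side. *Tsix*-stop cells, whose reads were assigned to pseudo-129 and pseudo-*cast* genomes, carry in all groups a transcriptional stop in *Tsix* on the X that is not *cast*, and that X is the one silenced on differentiation. Undifferentiated cells (D0, grown with LIF on feeder cells) and embryoid bodies after nondirected differentiation without LIF (D15) each gave 2 wt, 2 *Kdm6a* KO and 1 CRISPR control library. The KO removed exons of both alleles. The CRISPR control was treated but kept *Kdm6a* by its labels and the study's methods, while the names under which its values were deposited count it with the KO libraries. The labels were followed, and the values below do not settle which name is right. E8 cells (BL6 × *cast*) choose the X to silence mostly at random. By their labels they gave 2 wt and 2 KO libraries at D7 and at D15, whereas the study's methods describe E8 RNA-seq of other, earlier days. The labels give a day and no kind of differentiation. The E8 KO was 1 clone with the *Kdm6a* promoter deleted. The *Tsix*-stop KO libraries come from a study with a pair of KO clones, and the labels do not say which library is which clone. The methods call the wt libraries of that line biological replicates. For E8 nothing says whether replicates were separate cultures, so its p-values measure only the spread between these libraries, which may be technical.

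*Tsix*-stop libraries held 51091148 to 68796172 counts. *Kdm6a* read 46.7 to 47.8 TPM (transcript abundance scaled for gene length and library size) in the 4 E8 wt libraries and 0.00578 to 0.0319 TPM in the 4 E8 KO libraries. In *Tsix*-stop cells *Kdm6a* read 138 and 206 CPM (counts scaled to library size) in wt at D0 and 128.6 and 47.9 in KO. At D15 it read 139 and 110 CPM in wt, against 94.1 and 27.8 in KO. The exons left after that deletion still give reads, so the gene's total count checks nothing there. The KO libraries of one day differed from each other more than the wt libraries of that day in *Nes* and *Tubb3*, on both days.

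The 250 bases upstream of the transcription start were taken from RefSeq (GRCm38.p6), where 8 of the 9 genes matched. The start regions below are shown because these genes carry the differences described next (*Nes*, *Tubb3*, *Map2*, *Nrsn1*) or were hardly expressed in any library (*Dcx*). Each is the part of the 250 bases outside the gene's GENCODE vM21 exons, 5′ to 3′ on the gene's strand, with CpG dinucleotides in capitals. The *Nrsn1* stretch lies in an intron of a longer GENCODE transcript of the gene.

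Nes, chr3:87970843-87971077, plus strand: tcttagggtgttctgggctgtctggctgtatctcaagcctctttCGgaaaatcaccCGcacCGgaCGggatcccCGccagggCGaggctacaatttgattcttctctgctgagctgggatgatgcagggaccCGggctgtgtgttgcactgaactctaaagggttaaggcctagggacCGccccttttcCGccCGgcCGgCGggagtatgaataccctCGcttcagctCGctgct
Tubb3, chr8:123411303-123411423, plus strand: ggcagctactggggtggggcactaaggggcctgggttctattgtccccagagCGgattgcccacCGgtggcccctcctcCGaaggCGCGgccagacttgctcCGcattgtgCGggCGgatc
Map2, chr1:66175079-66175272, plus strand: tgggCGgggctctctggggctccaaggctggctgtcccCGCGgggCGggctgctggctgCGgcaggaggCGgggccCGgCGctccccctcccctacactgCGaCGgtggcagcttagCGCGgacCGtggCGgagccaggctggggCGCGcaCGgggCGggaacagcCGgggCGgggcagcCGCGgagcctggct
Nrsn1, chr13:25270083-25270178, minus strand: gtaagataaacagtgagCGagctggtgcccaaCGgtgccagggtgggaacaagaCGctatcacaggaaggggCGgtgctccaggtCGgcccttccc
Dcx, chrX:143933312-143933469, minus strand: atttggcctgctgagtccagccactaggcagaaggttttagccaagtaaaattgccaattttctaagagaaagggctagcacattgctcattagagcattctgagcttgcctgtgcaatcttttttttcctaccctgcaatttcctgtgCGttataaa

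Over the whole 250 bases *Map2* held 34 CpG, *Sox1* 29, *Tubb3* 21, *Nrsn1* 20, *Nes* 15 and *Neurog2* 8. Both annotated starts of *Pax6* held 15, and both of *Dcx* held 3. The median of all 32851 promoters of that length was 6, and 37.8% of them held at least 10.

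In GENCODE vM21 (GRCm38, the same build as the mm10 of the submitters' processing notes), *Sox3* (chrX:60891366-60893430, minus strand) and *Dcx* (chrX:143855842-143933311, minus strand) are X-linked. The others lie at chr2:105668900-105697364 (*Pax6*, plus strand), chr8:12395295-12400126 (*Sox1*, plus strand), chr3:87971078-87980451 (*Nes*, plus strand), chr3:127633135-127635631 (*Neurog2*, plus strand), chr8:123411424-123422015 (*Tubb3*, plus strand), chr1:66175273-66442583 (*Map2*, plus strand) and chr13:25252040-25270502 (*Nrsn1*, minus strand). Annotated genes overlap *Pax6* (*Pax6os1*, antisense), *Sox1* (*Sox1ot*), *Tubb3* (*Gm20388*) and *Map2* (*Gm10558*, antisense). The library kit does not mark strand, so reads of these partners cannot be told from those of the gene, and *Tubb3* also shares sequence with other β-tubulin genes.

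Levels per length placed *Tubb3* highest in 9 of the 10 groups. In *Tsix*-stop wt at D0, *Tubb3* stood at 143 TPM ± 5.63 (SD, n = 2), *Nes* at 32.7 ± 1.51, *Sox3* at 5.30 ± 0.515, *Map2* at 1.06 ± 0.532, *Sox1* at 1.02 ± 0.107, *Nrsn1* at 0.565 ± 0.168 and *Pax6* at 0.175 ± 0.103. *Map2* and *Sox1* could not be ordered, as their libraries overlapped. In *Tsix*-stop wt at D15, *Nes* at 31.4 TPM ± 1.18 (SD, n = 2) and *Tubb3* at 26.5 ± 2.37 led, followed by *Sox3* at 14.5 ± 1.41. In KO at D15 the order was *Tubb3* at 111 TPM ± 24.9 (SD, n = 2), *Nrsn1* at 11.9 ± 0.251, *Nes* at 9.15 ± 6.69 and *Sox3* at 6.96 ± 1.55, and the libraries of *Nes* overlapped those of both its neighbours. *Neurog2* and *Dcx* stayed under 1 TPM in all 18 libraries. *Pax6* stayed under 1 TPM in all 10 *Tsix*-stop libraries.

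**Figure D1:**
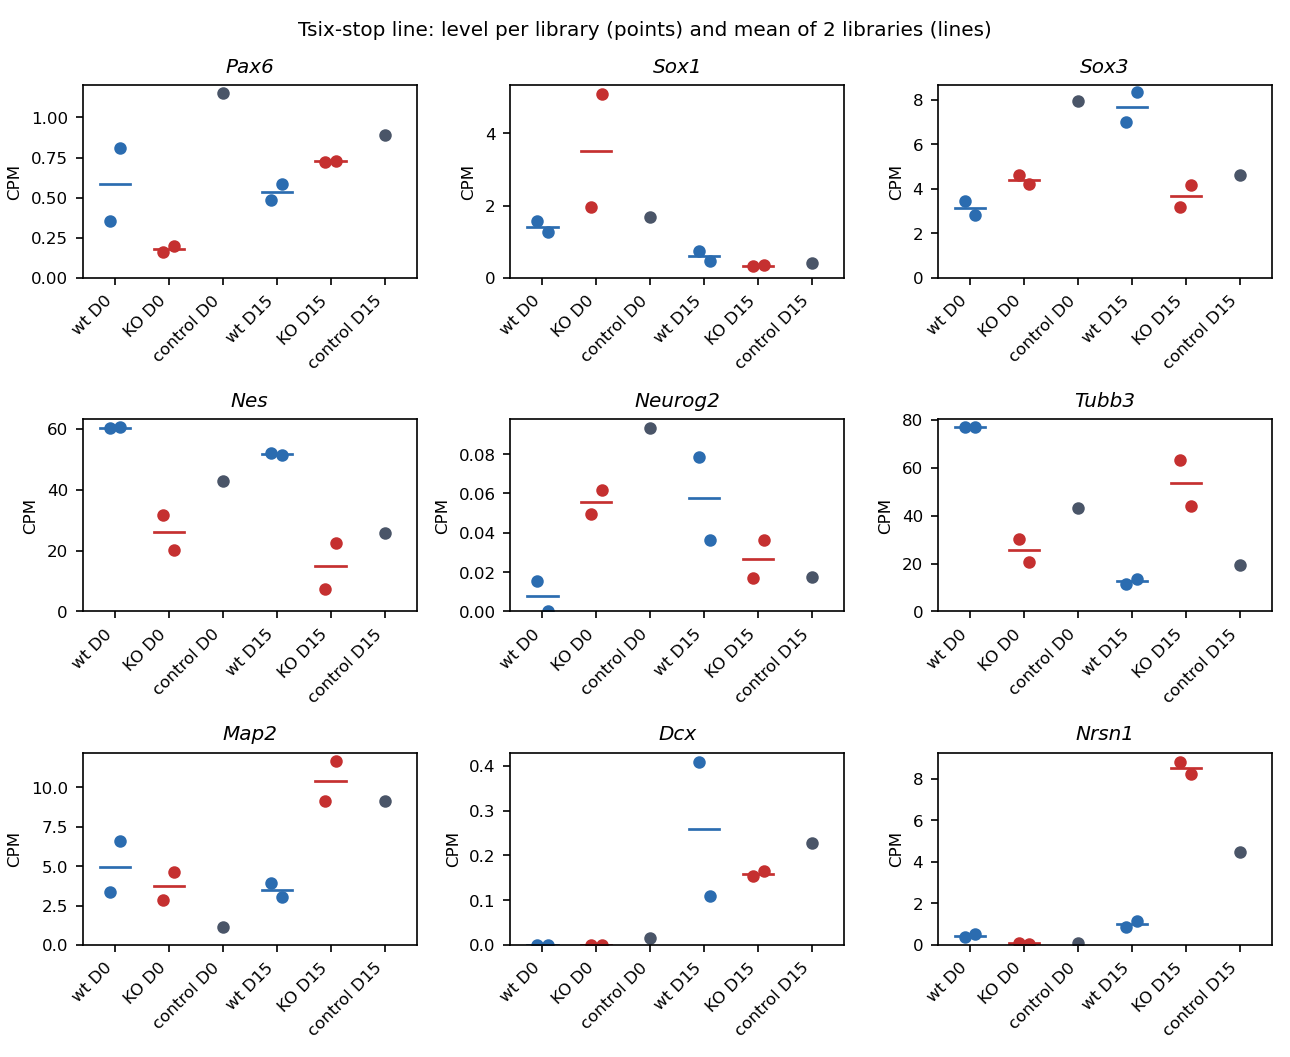
Level of each of the 9 genes in CPM (y axes, each with its own scale from 0) in the 10 *Tsix*-stop libraries, with points for libraries, lines for means of 2 libraries, and blue for wt, red for KO and grey for the single CRISPR control per day. *Tubb3* and *Nrsn1* of KO lie below wt at D0 and above wt at D15, while *Nes* of KO lies below wt on both days.

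Calls below mean an adjusted p (Benjamini-Hochberg over all genes tested) of at most 0.1 and a change of at least 2-fold, and genes entered a test when 2 or more libraries reached 2.5 CPM or 2.5 TPM. In *Tsix*-stop cells 5 of the 9 genes entered (*Sox3*, *Nes*, *Tubb3*, *Map2* and *Nrsn1*). *Nrsn1* entered through the KO D15 libraries alone, so its difference at D15 was partly set by the filter, and its values without a filter are given beside it. *Pax6*, *Sox1*, *Neurog2* and *Dcx* were under the limit. Since these are bulk samples, fewer cells of a type and less RNA per cell cannot be told apart.

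At D0, before differentiation, *Tubb3*, *Nes* and *Nrsn1* were lower in *Tsix*-stop KO than in wt. They were 3 of the 5 genes tested, against 5.01% of 13121 genes called lower and 8.12% called in either direction (3.11% higher). *Tubb3* read 77.1 and 76.9 CPM in wt, against 30.3 and 20.7 in KO, with 43.2 in the control library. The KO libraries lay below the wt libraries, and the fold change was −1.59 on the log2 scale (SE 0.222, adjusted p = 0.00393). *Nes* read 60.0 and 60.5 CPM in wt, against 31.7 and 20.2 in KO, with 42.8 in the control library. Its log2 fold change was −1.22 (SE 0.417, adjusted p = 0.0916), close to the limit of a call, and the call was lost without any single wt library, without either KO D0 library (adjusted p from 0.108 to 0.345) and with a replicate block (adjusted p = 0.108). *Nrsn1* was near the limit of detection, with 24 and 31 counts in wt, against 7 and 4 in KO, with 6 in the control library. Its log2 fold change was −2.33 (SE 0.450, adjusted p = 0.0135), and −2.31 (adjusted p = 0.00452) without a filter. The control library stood between wt and KO for *Tubb3* and *Nes* and among the KO libraries for *Nrsn1*. When it was counted as wt, 0 of the 5 genes were called by edgeR, with 2 at an unadjusted p under 0.05. Over all genes that setting left 20 calls among 13192, against 1066 among 13121 in the main fit.

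*Sox3* and *Map2* were not called at D0. *Sox3* read 3.46 and 2.85 CPM in wt, against 4.63 and 4.21 in KO, with 7.95 in the control library, so the control was higher than the KO libraries. *Map2* read 3.34 and 6.61 CPM in wt, against 2.86 and 4.64 in KO, with 1.15 in the control library. The wt and KO libraries of *Map2* overlapped, and the log2 fold change was −0.40 (SE 0.370, adjusted p = 0.518).

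At D15 *Tubb3* and *Map2* were higher in *Tsix*-stop KO than in wt, and *Nes* and *Sox3* were lower. *Nrsn1* was also called higher, but its call was set in part by the filter and is not counted with the other 4. Among all genes tested 14.9% were called, 3.83% higher and 11.1% lower. *Tubb3* read 11.6 and 13.7 CPM in wt, against 63.2 and 44.0 in KO, with 19.3 in the control library. Its log2 fold change was 2.08 (SE 0.227, adjusted p = 0.000542), with the control nearer to wt than to KO. *Map2* read 3.92 and 3.03 CPM in wt, against 9.12 and 11.7 in KO, with 9.16 in the control library. Its log2 fold change was 1.58 (SE 0.376, adjusted p = 0.0135), and the control sat inside the KO range. Without wt D15 replicate 2 the *Map2* call was lost (log2 fold change 1.43, adjusted p = 0.105).

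*Nrsn1* showed the largest difference of these genes at D15. It read 0.849 and 1.15 CPM in wt, against 8.83 and 8.21 in KO, with 4.49 in the control library. The control stood 3.90-fold above the higher wt library and below both KO libraries. The log2 fold change was 3.09 (SE 0.329, adjusted p = 0.000494), and 3.16 (adjusted p = 1.53e-05) without a filter, where 15.1% of 20483 genes were called. Leaving out either KO D15 library took *Nrsn1* under the filter, so that it had no test.

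*Nes* read 51.9 and 51.2 CPM in wt at D15, against 7.43 and 22.4 in KO, with 25.8 in the control library. The KO libraries stood apart from each other but stayed below wt, as did the control, and the log2 fold change was −1.79 (SE 0.426, adjusted p = 0.0135). *Sox3* read 6.999 and 8.36 CPM in wt, against 3.17 and 4.18 in KO, with 4.61 in the control library. Its log2 fold change was −1.06 (SE 0.248, adjusted p = 0.0125), just past 2-fold. The *Sox3* call was lost without wt D15 replicate 2 (−0.91) and without KO D15 replicate 1 (−0.85), since the change then fell under 2-fold, and without a filter (−0.995). With the CRISPR control counted as wt, *Tubb3* and *Nes* stayed called at D15, 2 of the 5 genes, where 1115 of all 13192 genes were called.

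The change from D0 to D15 was then read within each genotype. In wt *Tubb3* fell by 2.60 on the log2 scale (SE 0.231, adjusted p = 2.21e-05) while *Sox3* rose by 1.28 (SE 0.249) and *Nrsn1* by 1.15 (SE 0.346), 3 of 5 genes against 37.8% of all genes called (24.2% higher, 13.6% lower). *Nes* (−0.22, SE 0.410) and *Map2* (−0.51, SE 0.372) were not called. The *Nrsn1* rise in wt was lost without wt D0 replicate 1 (0.87) and without wt D15 replicate 2 (0.92), and the *Sox3* rise with the CRISPR control counted as wt (0.46, adjusted p = 0.335). In KO *Tubb3* rose by 1.07 (SE 0.219) and *Map2* by 1.47 (SE 0.374), against 27.6% of genes called (20% higher, 7.66% lower). Without KO D0 replicate 2 or without KO D15 replicate 1, the *Tubb3* rise in KO was under 2-fold (0.82 and 0.80). *Nrsn1*, which these KO libraries took past the filter, had a change of 6.57 (SE 0.425) in KO, and of 6.53 (adjusted p = 4.65e-08) without a filter. *Nes* was not called in KO (−0.80), but it was called without KO D0 replicate 2 (−1.09, adjusted p = 0.0861) and without KO D15 replicate 2 (−1.80, adjusted p = 0.000566).

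The change with day differed between genotypes for *Tubb3*, *Map2* and *Sox3* (interaction term, 17.1% of all genes called, 6.62% with a positive difference and 10.5% with a negative one). With the CRISPR control counted as wt, 564 of all 13192 genes were called. The difference, KO change minus wt change, was 3.67 for *Tubb3* (SE 0.317, adjusted p = 0.000583), 1.98 for *Map2* (SE 0.526, adjusted p = 0.0287) and −1.55 for *Sox3* (SE 0.350, adjusted p = 0.0164). For *Nrsn1* it was 5.42 (SE 0.547, adjusted p = 0.000865), and 5.47 (adjusted p = 2.74e-05) without a filter. For *Nes* it was −0.57 (SE 0.585, adjusted p = 0.508), but −1.56 (adjusted p = 0.00867, called) without KO D15 replicate 2. With the CRISPR control counted as wt, *Tubb3* alone was called, and without wt D15 replicate 2 *Map2* was lost (1.82, adjusted p = 0.107).

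**Figure D2:**
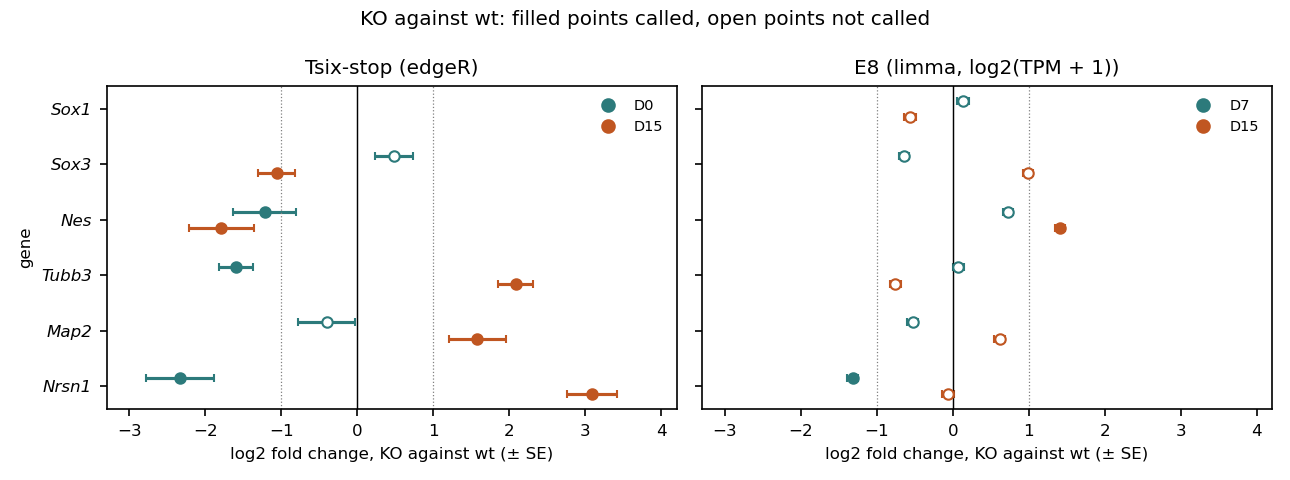
Log2 fold change of KO against wt (x axis, bars show 1 SE) for each tested gene (y axis), with 1 point per day, filled where called and dotted lines at 2-fold. In *Tsix*-stop cells *Sox3*, *Tubb3*, *Map2* and *Nrsn1* change sign between D0 and D15, and at D15 the signs of *Tubb3*, *Nes* and *Sox3* are opposite in E8, where *Nrsn1* lies at −0.06.

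The genes below the filter are described by counts. *Sox1*, a SOX factor of the early neural plate, had 102 and 74 counts in wt at D0, 119 and 330 in KO and 109 in the control, so the mean difference rested on KO replicate 2. At D15 it had 48 and 25 counts in wt, against 19 and 19 in KO, with 23 in the control library. *Pax6*, a master regulator of eye and forebrain, had 23 and 47 counts in wt, against 10 and 13 in KO, with 74 in the control library at D0, and 31, 32, 42, 40 and 51 in the same order at D15. In the fit without a filter, *Sox1* (1.34, adjusted p = 0.0524) and *Pax6* (−1.63, adjusted p = 0.0490) were called at D0 in KO against wt, where 8.49% of genes were called, but the CRISPR control lay above both genotypes for *Pax6*. At D15 neither was called. Without a filter 37.7% of genes were called from D0 to D15 in wt, where *Sox1* was lower (−1.31, adjusted p = 0.0212), and 27.7% in KO, where *Sox1* was lower (−3.43, adjusted p = 4.30e-05) and *Pax6* higher (1.93, adjusted p = 0.00547). The interaction, with 14.9% of genes called, was called for *Pax6* (2.14) and *Sox1* (−2.12). *Neurog2* had 0 to 6 counts in every library. *Dcx* had 0 counts in the 4 wt and KO libraries of D0, 26 and 6 in wt, against 9 and 9 in KO, with 13 in the control library at D15. Against a floor of 3 counts per library at D0, the mean of *Dcx* at D15 was at least 5.30-fold higher in wt and at least 3.33-fold higher in KO (at least 2.24-fold and 3.23-fold on the lower library of each group), and it stayed at a mean of 0.0810 and 0.0491 TPM.

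Reads with SNPs tell the *cast* allele from the other in *Tsix*-stop cells, and the non-*cast* share is given for libraries with at least 20 such reads of a gene, with 95% Wilson intervals that cover counting error only. The autosomal *Nes* lay between 50.05% and 55.6% non-*cast* in all 10 libraries, the wt D0 libraries at 50.05% (47.0% to 53.1%, 1055 reads) and 52.8% (49.7% to 55.9%, 1000 reads). *Tubb3* leaned to *cast* in all 10 libraries, at 28.0% to 46.1% non-*cast*. In KO at D15 it was 36.6% (32.9% to 40.4%, 634 reads) and 39.1% (34.6% to 43.8%, 422 reads), and in wt at D15 28.0% (21.4% to 35.7%, 150 reads) and 36.7% (28.6% to 45.6%, 120 reads). The lean to *cast* was present in both genotypes and on both days. *Nrsn1* in KO at D15 came from both alleles, at 47.2% (32.0% to 63.0%, 36 reads) and 56.0% (42.3% to 68.8%, 50 reads). *Map2* in KO at D15 stood at 60.2% (49.5% to 70.1%, 83 reads) and 64.4% (55.4% to 72.5%, 118 reads). The X-linked *Sox3* at D15 had 12.2% (5.73% to 24.2%, 49 reads) and 25.0% (14.9% to 38.8%, 48 reads) in wt, 42.3% (25.5% to 61.1%, 26 reads) in the KO library with enough reads and 4 of 20 reads (8.07% to 41.6%) in the CRISPR control. At D0 the same gene had 23.1% and 42.9% in wt and 29.2% and 45.7% in KO. The interval of wt D15 replicate 1 lay below that of the KO D15 library, and the interval of wt D15 replicate 2 overlapped it.

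Other neural genes were read from 7 lists of 124 genes in all, 67 of which entered the *Tsix*-stop test and 62 the E8 test. The lists hold a median that can be set beside all genes, and no call of a list as a whole was made. In *Tsix*-stop KO against wt at D15, 8 of 67 genes rose and 15 fell, with 34.3% of the 67 called against 14.9% of all genes. With the CRISPR control counted as wt, 15 were called, against 1115 of all 13192 genes. Leaving out either wt D15 library gave fewer list calls, and fewer calls over all genes too. Among the neuron proteins 4 of 20 tested rose and 1 fell (median log2 fold change 0.47, against 0.00 for all genes): *Ina* (α-internexin, a neuronal intermediate filament) rose by 2.88, *Stmn3* (a tubulin-destabilizing protein) by 1.93 and *Tagln3* by 1.28, while *Isl1*, a LIM factor of motor neurons that is also made in heart progenitors, fell by 2.58. Of the neural plate and patterning regulators 3 of 11 rose (among them *Gbx2* by 1.96 and *Sox2* by 1.02) and 2 fell (*Irx3* by 1.15 and *Zic2* by 1.11), with a median of 0.21. *Sox2* is also known as an ES cell gene.

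The neural progenitor proteins at D15 had 1 of 10 higher, *Metrn* at 1.18, and 4 lower, led by *Ptn* (−5.18), *Vim* (−1.78) and *Cdh2* (−1.60), with a median of −0.57. Pleiotrophin, vimentin and N-cadherin are also made by mesenchymal cells. Of 4 proneural and commitment factors that could be tested, *Sox4* (−1.70) and *Sox11* (−1.53) fell. In the neural crest and glia list 4 of 6 fell, led by *Ednrb* (−3.73), *Snai2* (−2.88) and *Sox9* (−2.25), with a median of −2.05. The glial genes named further below stayed under 1 TPM and entered no test. Fibroblast markers fell alongside, 7 of 8 called lower with a median of −3.36. Whether the falls of this list belong to neural crest or to mesenchymal cells was not tested. Of the tubulin and microtubule-binding relatives *Dclk1* (−1.47) and *Tubb4a* (−1.18) fell, and the other 10 of 12 were not called. The 4 genes of the REST complex, a repressor of neuronal genes, were not called. Adjusted p-values of the list genes named here lay between 6.40e-05 and 0.0433.

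**Figure D3:**
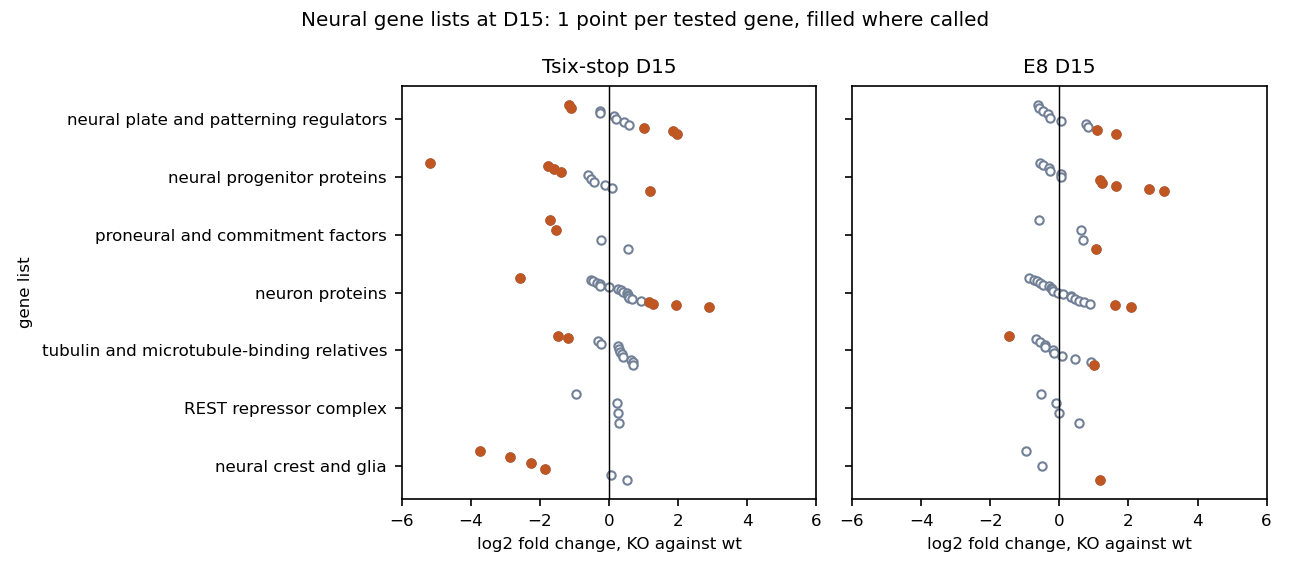
Log2 fold change of KO against wt at D15 (x axis) for each tested gene of the 7 neural lists (y axis) in *Tsix*-stop and E8 cells, with filled points called and open points not called. *Ptn*, a progenitor protein, lies at −5.18 in *Tsix*-stop cells, and *Cdh2* and *Vim* lie on opposite sides of 0 in the panels.

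At D0 8 of the 67 list genes rose and 6 fell in *Tsix*-stop KO against wt, 20.9% against 8.12% of all genes. With the CRISPR control counted as wt, 20 of all 13192 genes were called, and of the list genes 0 were called by edgeR (13 at an unadjusted p under 0.05). Fewer list genes were called without wt D0 replicate 2, KO D0 replicate 2 or either wt D15 library, and fewer of all genes too. The falls included *L1cam* (−2.20), *Gap43* (−2.18) and *Crmp1* (−2.01), which serve axon growth, *Dclk1* (−1.56), a relative of *Dcx*, and *Vim* (−1.50). The rises included the neurofilament genes *Nefm* (2.56) and *Nefl* (1.23), *Metrn* (1.73), *Cdh2* (1.35), *Sox21* (1.79), *Gbx2* (1.42) and *Pou3f1* (1.24). These 12 genes had adjusted p-values between 0.00186 and 0.0830. Neuron proteins had a median of 0.09 and neural plate regulators of 0.51, against −0.01 over all genes.

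Over the 15 days 56.7% of the 67 list genes were called in wt, against 37.8% of all genes, and 50.7% in KO, against 27.6%. In wt 24 rose (24.2% of all genes) and 14 fell (13.6% of all genes). The rises included *Ptn* (6.67), *Sox9* (6.23), *Ednrb* (5.29), *Irx3* (4.59), *Sox4* (4.47), *Dclk1* (4.45), *Sox11* (4.37), *Dll1* (4.28), *Isl1* (4.22), *Prom1* (4.02), *Tubb4a* (3.69) and *Snai2* (3.64). The falls in wt included *Stmn3* (−3.05), *En2* (−2.22), *Nefh* (−2.14), *Elavl4* (−1.87), *Gbx2* (−1.49), *Foxd3* (−1.37), *Dclk2* (−1.24), *Tubb2b* (−1.13), *Zic2* (−1.06) and *Tubb4b* (−1.05), with smaller rises such as *Dpysl3* (2.54), *Crmp1* (2.25), *Otx2* (1.25) and *Hes6* (1.04). In KO 23 of 67 rose (20% of all genes) and 11 fell (7.66% of all genes). The rises included *Crmp1* (5.18), *Irx3* (4.72), *Sox9* (4.64), *Dclk1* (4.54), *Dll1* (4.52), *L1cam* (4.01), *Tubb4a* (3.34), *Sox11* (3.18), *Slc17a7* (3.05), *Prom1* (2.69), *Ednrb* (2.22), *Sox4* (2.14), *Otx2* (1.91), *Nrsn2* (1.67) and *Vim* (1.32), and the falls included *Nefm* (−3.39), *En2* (−2.79), *Nefl* (−1.97), *Elavl4* (−1.77), *Zic2* (−1.72), *Lhx2* (−1.71), *Foxd3* (−1.64) and *Dclk2* (−1.16).

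The interaction term was called for 22 of 67 list genes, 8 with a positive and 14 with a negative difference (32.8% against 17.1% of all genes, 6.62% positive and 10.5% negative). With the CRISPR control counted as wt, 564 of all 13192 genes were called. The difference, KO change minus wt change, was positive for genes such as *Ina* (4.45), *Crmp1* (2.93) and *L1cam* (2.21). It was negative for genes such as *Ptn* (−5.42), *Snai2* (−3.62), *Isl1* (−3.40), *Ednrb* (−3.07), *Nefm* (−3.04), *Cdh2* (−2.96), *Twist1* (−2.54), *Sox4* (−2.34), *Sox21* (−1.64), *Msi1* (−1.57), *Rcor1* (−1.38), *Lhx2* (−1.29) and *Sox11* (−1.19). With the CRISPR control counted as wt 6 were called. Fewer list genes, and fewer of all genes, were called without wt D15 replicate 1.

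Several genes of the neural lists stayed low throughout. Of the 18 proneural and commitment factors 11 stayed under 1 TPM in all 18 libraries, among them *Neurog1* and *Tbr1*. Of the 35 neuron proteins 7 did so (among them *Gad2*, *Slc17a6*, *Th*, *Onecut2* and *Celf3*), and the glial genes *Gfap*, *Aqp4* and *S100b* did too. Other neuron proteins were well above that level. *Nefl* reached 105 TPM in *Tsix*-stop and 26.8 in E8 libraries, and *Ina* 48.8 and 39.6. The ES cell markers summed to 2698 to 5133 TPM at D15 in wt and KO *Tsix*-stop libraries. The 9 genes were thus measured in cultures where several neuronal genes stayed under 1 TPM and others did not.

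Markers of other cell types moved with the *Tsix*-stop groups, and their part in the results above was not tested. Summed over 8 fibroblast genes such as *Col1a1* and *Lum*, the level at D15 was 2733 to 3081 TPM in wt, 216 to 271 in KO and, in the control library, 115. The 8 visceral endoderm genes summed to 882 to 1009 TPM in wt, 34.1 to 64.1 in KO and 36.0 in the control, and the 8 cardiac genes to 134 to 170, 35.4 to 47.9 and 30.7. Of the fibroblast genes tested 7 of 8 were called lower in KO at D15, of the endoderm genes 7 of 8 and of the cardiac genes 5 of 6. The ES cell genes summed to 2698 to 2923 TPM in wt, 4219 to 5133 in KO and 3084 in the control. None of these fibroblast, endoderm, cardiac or ES cell genes was at 0 in any D15 library of the line, and 1 or 2 fibroblast genes, 1 endoderm and 1 cardiac gene were at 0 in some D0 libraries. At D0 the fibroblast genes summed to 18.8 to 22.7 TPM in wt, 5.15 to 5.54 in KO and 6.86 in the control.

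**Figure D4:**
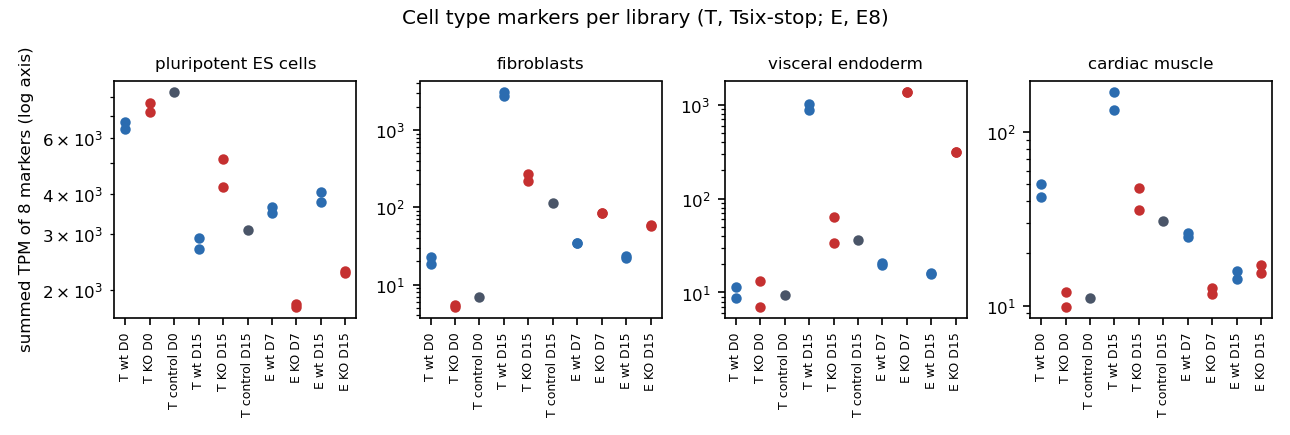
Summed TPM of 8 markers per cell type (y axes, log scale) in each library, with T for *Tsix*-stop, E for E8, blue for wt, red for KO and grey for the CRISPR control. At D15 the fibroblast, endoderm and cardiac sums of *Tsix*-stop KO and of its control lie below wt, and the endoderm sum of E8 KO lies above E8 wt.

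E8 cells were measured at D7 and D15, in TPM, and tested with limma on log2(TPM + 1), which understates changes of low genes. The depth of these libraries is unknown. In E8 6 of the 9 genes entered the test, *Sox1* through wt D15 alone, so its differences that involve wt D15 were partly set by the filter. The highest level was that of *Tubb3* in each of the 4 groups.

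At D7 *Nrsn1* was lower in E8 KO, the one call among 6 genes, against 17.5% of 12452 genes called, 11.4% higher and 6.18% lower. It read 4.49 and 4.87 TPM in wt and 1.25 and 1.31 in KO, with a log2 fold change of −1.32 (SE 0.0785, adjusted p = 2.46e-06). *Nes* read 3.74 and 3.45 TPM in wt and 6.66 and 6.59 in KO, without overlap, a change of 0.73 (SE 0.0664, adjusted p = 2.59e-05) that was under 2-fold. *Sox3* at 5.26 and 5.04 TPM in wt and 2.77 and 3.10 in KO (−0.65, SE 0.0671) and *Map2* at 2.95 and 3.14 in wt and 1.92 and 1.70 in KO (−0.53, SE 0.0713) also had adjusted p-values under the limit with changes under 2-fold. *Tubb3* read 40.5 and 36.6 TPM in wt and 39.6 and 41.7 in KO, and *Sox1* 1.15 and 1.08 in wt and 1.32 and 1.35 in KO, and neither was called. The median change of all genes tested was 0.10 at D7, and rescaling to the median gene turned *Tubb3* from 0.08 to −0.14.

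At D15 *Nes* was higher in E8 KO, the one call among 6 genes, against 10.7% of genes called, 7.67% higher and 3.08% lower. It read 1.43 and 1.63 TPM in wt and 5.91 and 5.56 in KO, with a log2 fold change of 1.41 (SE 0.0664, adjusted p = 1.30e-06). *Sox3* read 3.47 and 3.81 TPM in wt and 8.40 and 7.999 in KO. Its change of 0.99 (SE 0.0671, adjusted p = 8.38e-06) was just under 2-fold on this scale, and it was called with a pseudocount of 0.5 or 0.1, without wt D15 replicate 2 (1.04) and without KO D15 replicate 2 (1.02). *Tubb3* read 24.5 and 27.8 TPM in wt and 15.1 and 15.0 in KO (−0.76, SE 0.0705, adjusted p = 4.42e-05). *Map2* read 2.17 and 2.01 TPM in wt and 3.65 and 3.84 in KO (0.62, SE 0.0713). *Sox1* read 2.53 and 2.92 TPM in wt and 1.45 and 1.57 in KO (−0.57, SE 0.0785). *Nrsn1* read 2.70 and 3.19 TPM in wt and 2.79 and 2.76 in KO, and the groups overlapped.

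**Figure D5:**
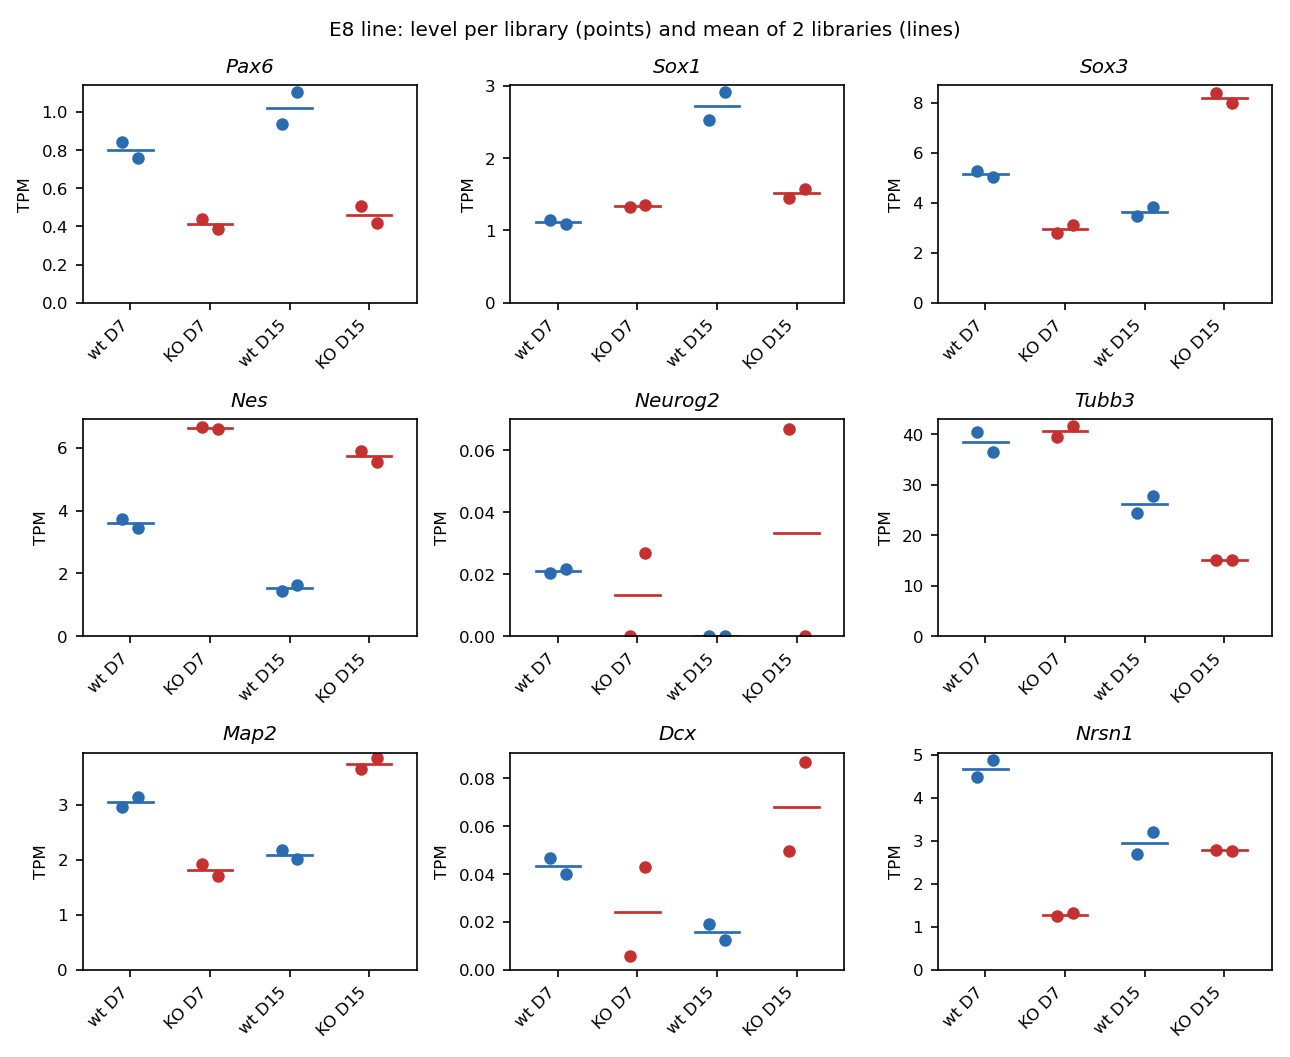
Level of each of the 9 genes in TPM (y axes, each with its own scale from 0) in the 8 E8 libraries, with points for libraries, lines for means of 2 libraries, blue for wt and red for KO. *Nes* of KO lies above wt on both days, *Nrsn1* of KO lies below wt at D7 and among the wt libraries at D15, and *Neurog2* and *Dcx* stay below 0.1 TPM.

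From D7 to D15 limma called 0 of the 6 genes in E8 wt, where 1.41% of all genes were called (0.586% higher, 0.819% lower). All 6 of 6 had an unadjusted p under 0.05, but 7301 of 12452 genes passed the limit of the adjusted p with no minimum fold. *Nes* fell by 0.86 and *Tubb3* by 0.54, and *Sox1* went up by 0.81, all under 2-fold on this scale. The *Sox1* rise was partly set by the filter, and was 0.81 (adjusted p = 0.000717, not called) without a filter. In E8 KO *Sox3* rose by 1.23 (SE 0.0671, adjusted p = 4.92e-06) and *Tubb3* fell by 1.38 (SE 0.0705, adjusted p = 3.66e-06), against 6.11% of genes called (3.41% higher, 2.7% lower). The interaction term was called for *Sox3* (1.63, SE 0.0949), *Map2* (1.15, SE 0.101) and *Nrsn1* (1.26, SE 0.111), each with a positive difference, against 7.25% of genes called (3.89% positive, 3.36% negative). *Pax6* read 0.843 and 0.758 TPM in E8 wt and 0.440 and 0.387 in KO at D7, and 0.938 and 1.10 in wt and 0.505 and 0.418 in KO at D15. *Neurog2* read 0 to 0.0667 TPM and *Dcx* 0.00558 to 0.0868 TPM over the 8 libraries.

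The lines share D15 as a day. At D15 the KO mean over the wt mean was 4.23 for *Tubb3* in *Tsix*-stop and 0.575 in E8, 0.289 and 3.75 for *Nes*, 0.479 and 2.25 for *Sox3*, 2.99 and 1.79 for *Map2*, and 8.52 and 0.942 for *Nrsn1*. For *Tubb3*, *Nes* and *Sox3* wt and KO did not overlap in either line and the directions were opposite. *Map2* did not overlap in either line either, with the same direction in both. The same held for *Sox1*, at 0.555 in both lines, though it was below the filter in *Tsix*-stop cells and passed it in E8 through wt D15 alone. Lack of overlap between groups of 2 libraries is weak evidence by itself. The share of all genes without overlap and with opposite directions was not counted. The difference between lines was not tested, since the units, the kind of deletion and the strains differ with the line. Marker sums of wt at D15 differed too. Fibroblast genes summed to 2733 to 3081 TPM in *Tsix*-stop wt and 22.2 to 23.7 in E8 wt, and endoderm genes to 882 to 1009 and 15.6 to 16.1. ES cell genes summed to 2698 to 2923 TPM in *Tsix*-stop wt and 3772 to 4055 in E8 wt. The shared day is therefore not a matched state of the cultures.

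In E8 KO at D15, 12 of 62 list genes rose and 1 fell (21.0% against 10.7% of all genes). Among others, *Cdh2* (3.03), *Vim* (2.60), *Isl1* (2.08), *Sox21* (1.64), *Ptn* (1.63), *Nefm* (1.62), *Twist1* (1.17), *En1* (1.08), *Sox11* (1.07) and *Tubb4a* (1.00) rose, and *Nrsn2*, the paralog of *Nrsn1*, fell by 1.44. At D7 11 rose and 10 fell (33.9% against 17.5% of all genes, 11.4% higher and 6.18% lower). The rises were *Vim* (3.52), *Cdh2* (1.96), *Nefm* (1.64), *Gap43* (1.55), *Ptn* (1.49), *Twist1* (1.39), *Sox21* (1.35), *En1* (1.35), *Isl1* (1.17), *Tubb6* (1.16) and *Irx3* (1.15). The falls included *Tagln3* (−1.74), *Nrsn2* (−1.54), *Sox2* (−1.31), *Zic5* (−1.29), *Mapt* (−1.27), *L1cam* (−1.23), *Elavl3* (−1.18) and *Dll3* (−1.15). Beside these, the visceral endoderm genes summed to 19.8 to 20.7 TPM in wt and 1358 to 1361 in KO at D7, and to 15.6 to 16.1 and 314 to 316 at D15. The fibroblast genes summed to 34.8 in wt and 84.0 to 84.8 in KO at D7, and to 22.2 to 23.7 and 57.7 to 59.2 at D15. The ES cell genes summed to 3498 to 3632 TPM in wt and 1776 to 1807 in KO at D7, and to 3772 to 4055 and 2271 to 2302 at D15. Their part in the result was not tested.

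From D7 to D15 in E8, 6.45% of the 62 list genes were called in wt against 1.41% of all genes, 9.68% against 6.11% in KO and 11.3% against 7.25% for the interaction. In wt *Cdh2* (−1.26), *Dll3* (−1.18), *Tubb4a* (−1.09) and *Ina* (−1.02) fell. In KO *Syp* (1.75), *Dll3* (1.22), *L1cam* (1.10) and *Isl1* (1.01) rose and *Gap43* (−1.79) and *Vim* (−1.16) fell. The interaction term was called for *Dll3* (2.39), *Tubb4a* (1.51), *L1cam* (1.20), *Tagln3* (1.18), *Syp* (1.15), *Cdh2* (1.06) and *Gap43* (−1.44).

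For each gene called in *Tsix*-stop cells, the genes whose profile over the 10 libraries differed least from it were found as the root mean square difference of centred log2(CPM + 0.5). For *Tubb3* they were *Tdrd12* (0.337), *Nlrp12* (0.374) and *Stat4* (0.398), against a spread of *Tubb3* itself of 0.938. For *Nes* they were *Myof* (0.335), *Pcdhgb7* (0.386) and *Jak3* (0.404), against 0.874. For *Sox3* they were *Eef2k* (0.142), *Hic1* (0.217) and *Cux1* (0.229), against 0.471. For *Map2* they were *1190005I06Rik* (0.340), *Park2* (0.396) and *Celsr3* (0.405), against 0.836. For *Nrsn1* they were *Lypd2* (0.440), *Cacna1b* (0.464) and *Ptger2* (0.476), against 1.502.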

How the data were processed

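RNA-seq of poly(A) RNA was analysed from the processed values of 18 libraries, grouped by line, genotype and day as labelled. The values the authors deposited for *Tsix*-stop cells were estimated counts, not normalized, and 7.10% of them were not whole. The diploid level was the rounded count on the pseudo-129 genome. For E8 cells the authors deposited TPM, and 537 symbols given more than once were summed. TopHat2 2.1.1 and Bowtie2 2.4.5 on mm10 are named in the submitters' processing notes, and the gene annotation is not given in the sources used here. CPM used TMM factors over 10 libraries, and TPM of *Tsix*-stop cells used exon lengths of GENCODE vM21 for 23310 symbols.

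*Tsix*-stop wt and KO libraries were fitted together with edgeR 4.0.16 (quasi-likelihood test, R 4.3.3), and E8 with limma 3.58.1 (trend) on log2(TPM + 1). Genes needed 2.5 CPM or TPM in at least 2 libraries. Both tests were checked on simulated data. DESeq2 1.42.0, other scalings, filters, pseudocounts, a replicate block, a CRISPR control counted as wt and leaving out each library were tried. Genes named were the 9 members, *Kdm6a*, up to 3 called rises and 3 called falls per list and comparison, and the 3 most similar profiles per called member. Some genes that the rule named are not reported here. *Neurog1*, *Tbr1*, *Gad2* and other list genes at low level were named by their level alone. The members and lists were chosen with earlier results of these data known. The allelic TPM columns of E8, each scaled on its own, were not used here.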

Additional observations from a re-analysis of the deposited data

Results flagged for a closer look

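A test of the difference itself (edgeR interaction term) separated the D0 to D15 changes of KO and wt *Tsix*-stop cells, with KO change minus wt change of 3.67 for *Tubb3*, 5.42 for *Nrsn1* (5.47 without a filter, which it passed only through KO D15), 1.98 for *Map2* and −1.55 for *Sox3* on the log2 scale. In E8 the same term for D7 to D15 (limma) was 1.63 for *Sox3*, 1.15 for *Map2* and 1.26 for *Nrsn1*. The sign for *Sox3* was opposite in the lines, over different days, and the difference between lines was not tested.

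At D15 the KO mean over the wt mean pointed in opposite directions in the lines, without overlap of libraries, for *Tubb3* (4.23 in *Tsix*-stop, 0.575 in E8), *Nes* (0.289 and 3.75), *Sox3* (0.479 and 2.25) and *Pax6* (1.35 and 0.452). *Pax6* had 31 to 42 counts in the wt and KO *Tsix*-stop libraries. Without a filter it was not called at D15 in *Tsix*-stop cells (edgeR, log2 fold change 0.51, adjusted p = 0.457). Nor was it called in E8 (limma, −0.47, under 2-fold). Lack of overlap between groups of 2 libraries is weak evidence by itself, and its share among all genes was not counted. The difference between lines was not tested, and the marker sums of wt at D15 also differed between the lines.

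The CRISPR control library, which no main comparison uses, stood at least 2-fold above the higher wt library of its day for *Sox3* at D0 (7.95 CPM), *Neurog2* at D0 (0.0932 CPM, 6 counts), *Map2* at D15 (9.16 CPM) and *Nrsn1* at D15 (4.49 CPM). There was 1 such library per day, so these values have no replicate. The labels and methods call it a control, while the names of its deposited values count it with the KO libraries, so its identity is uncertain.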

How the results depend on the processing

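Here and below, counts of members at D15, from D0 to D15 in KO and for the interaction include *Nrsn1* where it was called. It passed the main filter only through KO D15. With the CRISPR control counted as wt, calls among the 9 genes in *Tsix*-stop cells went from 3 to 0 at D0, from 5 to 2 at D15 and from 4 to 1 for the interaction, and calls among 67 list genes from 14 to 0, from 23 to 15 and from 22 to 6. Over all genes, calls went from 1066 of 13121 to 20 of 13192 at D0, from 1958 to 1115 at D15 and from 2247 to 564 for the interaction. The log2 changes of *Sox3* (−0.10) and *Map2* (0.024) at D0 and of *Map2* from D0 to D15 in wt (0.50) then changed sign. Without a filter on low counts the 9 genes gave 5 calls at D0, 5 from D0 to D15 in wt and 6 in KO, and the lists 23, 71, 64 and, for the interaction, 38. Of all 20483 genes 1738, 7713, 5665 and 3051 were called, in the same order. Asking for 2.5 CPM in 4 libraries gave 14 list calls at D15, where 1396 of 12181 genes were called. With no minimum fold the lists gave 26 calls at D0 and 38 at D15, against 2687 and 5856 of all 13121 genes. Leaving out 1 library gave 3 to 5 calls at D15, 1 to 3 from D0 to D15 in KO, and list calls of 8 to 16 at D0, 12 to 24 at D15 and 13 to 22 for the interaction. It moved *Map2* between −0.82 and 0.17 at D0 and between −0.95 and 0.057 from D0 to D15 in wt, and the *Nes* interaction between −1.56 (called, without KO D15 replicate 2) and 0.040. The cause was not tested.

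In E8 a pseudocount of 0.1 gave 2 calls at D15, 2 from D7 to D15 in wt and 4 in KO, with 7 and 11 list calls for those times. Of all 12452 genes it called 1704 at D15, 332 in wt and 1098 in KO. A pseudocount of 0.5 gave 2 at D15 and 1 in wt, where 1546 and 239 of all 12452 genes were called. With no minimum fold there were 4 calls at D7, 5 at D15, 6 in wt, 5 in KO and 6 for the interaction, and 57, 54, 48, 52 and 47 list calls. Of all 12452 genes that setting called 10558, 9745, 7301, 9451 and 8369, in the same order. Rescaling to the median gene turned *Tubb3* at D7 to −0.14. Leaving out 1 library changed the number of members called at D15 and of list genes called in wt, and the number over all genes moved as well. *Nrsn1* at D15 then lay between −0.15 and 0.028. The depth of E8 is unknown.

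Replicate numbers are shared by groups, and correlations of deviations between groups lay between −0.16 and 0.20. The highest was that of *Tsix*-stop KO D0 with KO D15 (0.198). *Kdm6a* was higher in KO replicate 1 than in replicate 2 on both days (128.6 against 47.9 CPM at D0, 94.1 against 27.8 at D15). Whether these numbers follow clone is not stated, so the KO libraries may be paired by clone. A replicate block left 2 calls at D0 in *Tsix*-stop (*Nes* lost, adjusted p = 0.108) and changed no other count of members. With the numbers of wt D15 swapped, an alternative chosen after seeing the data, there were 2 at D0, 5 at D15, 1 at D7 and 1 at D15 in E8. Of the member values under all alternatives, 391 of the *Tsix*-stop ones and 464 of the E8 ones kept direction and call.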
